A study of Mus musculus with 6 samples.

Results

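The genes described here encode the major structural proteins of cartilage matrix: Col2a1, Col11a1, Col11a2, Col9a1, Col9a2, Col9a3, Acan, Hapln1, Comp and Matn3. They were picked by symbol and are 10 of the 48440 genes in the count table. Of the 10 genes, 9 had enough reads to be tested, and Matn3 did not. RNA was sequenced from murine tissue entangled with engineered cartilage (BEC), to compare the surroundings of BEC in membranes with and without axitinib, a small-molecule inhibitor of VEGF receptors. The 0%-Axitinib group and the 3%-Axitinib group each had 3 samples. BEC had been made from rabbit bone marrow stromal cells, seeded on a PLGA scaffold and kept in chondrogenic medium for 4 weeks. It was wrapped in an electrospun membrane of PCL and collagen holding 0% or 3% axitinib by mass, placed under the skin of male BALB/c nude mice 6 to 8 weeks old, and harvested after 12 weeks. The labels call the samples of the first group untreated, and they were read as 0%-Axitinib samples, since the protocol given for every sample has only membranes with 0% or 3% of the drug. Mice carried the implants in pairs that never mixed groups, and the mouse of each sample is not given, so n counts samples. Nude mice lack a normal thymus and most T cells, and the tissue sequenced was a mixture of cell types.

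In hyaline cartilage, thin fibrils of collagen II, with collagen XI inside them and collagen IX on their surface, form a net that resists tension. Aggrecan, the large proteoglycan encoded by Acan, fills this net and is bound to hyaluronan with the help of the link protein encoded by Hapln1. The proteins encoded by Comp and Matn3 connect collagen fibrils with other matrix components, and Comp and Col11a1 are also expressed in tendon, ligament and other fibrous tissue.

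The number of reads counted on genes ranged from 9225518 to 18403795. A count of 3, used as the limit of detection, was equal to 0.157 to 0.330 CPM (counts scaled to library sizes normalized by TMM). Reads that STAR did not map to the mouse genome made up 5.47%, 3.84% and 14.9% in 0%-Axitinib replicates 1, 2 and 3 and 48.4%, 29.2% and 16.8% in 3%-Axitinib replicates 1, 2 and 3. The difference between the group means was 23.4 percentage points (p = 0.1 by exact permutation, two-sided, which is the smallest value possible with 3 samples per group). It was 15 percentage points without 3%-Axitinib replicate 1. Whether any of the reads counted on the mouse genes came from rabbit transcripts was not tested. Against the tissue label, fibroblast genes were found in every sample, while the adipocyte genes Adipoq, Plin1 and Cidec had only 5, 2 and 6 reads in 3%-Axitinib replicate 2, where Lpl and Fabp4 were at 474 and 285 CPM. Skeletal muscle genes were abundant in 3%-Axitinib replicates 1 and 3 only, and the keratinocyte genes Krt5 and Krt14 in 0%-Axitinib replicate 2 only.

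The study's criterion asks for at least a 1.5-fold difference and p of at most 0.05, and was applied to edgeR's unadjusted p. It was met by 4 of the 10 cartilage matrix genes (Col2a1, Col9a3, Acan and Hapln1), all higher in the 3%-Axitinib group, where 9.54% of all 15257 tested genes were called higher. Col9a1 met it as well but is not counted here, because it passed the filter on low counts only through the 3%-Axitinib group. None of the 10 genes was called lower, against 11.7% of all tested genes. More or fewer cells that make cartilage matrix and more or less RNA per cell cannot be told apart in such tissue. With p adjusted by Benjamini and Hochberg's method over the whole set of tested genes, edgeR gave 0 of the 9 tested cartilage matrix genes an adjusted p of at most 0.05, as for nearly all other genes (0.00655% called). An unadjusted p of at most 0.05 was reached by the same 4 genes and Col9a1, and by 3585 of all 15257 tested genes. DESeq2's Wald test gave the same 4 genes and Col9a1 an adjusted p of at most 0.05, and called 5.93% of all tested genes higher. Limma-voom gave it to 0 of the 9 genes and to 0.0131% of all tested genes. For Col9a3, Acan and Hapln1, the lowest 3%-Axitinib sample exceeded the highest 0%-Axitinib sample, a separation seen in this direction in 14.7% of all tested genes and in the other direction in 16.6%.

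**Figure D1:**
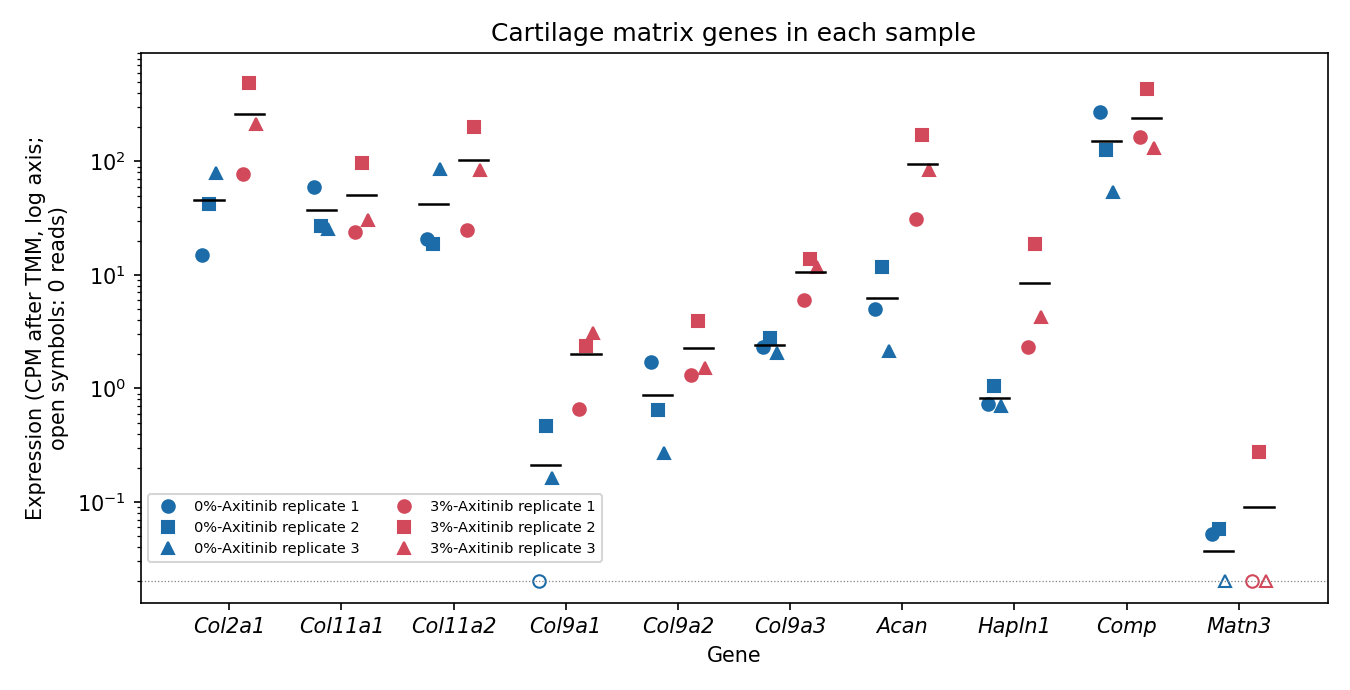
Expression of the 10 cartilage matrix genes in each sample, in CPM on a log axis, with the 0%-Axitinib samples in blue, the 3%-Axitinib samples in red and the group means as black lines; open symbols on the dotted line mark 0 reads. Col9a3, Acan and Hapln1 are separated between the groups, and 3%-Axitinib replicate 2 is the highest sample for 9 of the 10 genes. Col9a1 is separated too, but its nearest samples of the 2 groups, with 6 and 8 reads, are near the limit of detection. It passed the filter on low counts only through the 3%-Axitinib group.

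Col2a1 (chromosome 15 of GRCm38, 97975602 to 98004695, minus strand) encodes the single chain of collagen II. Its expression was 14.9, 41.9 and 79.5 CPM in 0%-Axitinib replicates 1, 2 and 3 and 77.2, 493 and 214 CPM in 3%-Axitinib replicates 1, 2 and 3. The groups overlapped narrowly, since the lowest 3%-Axitinib sample was just below the highest 0%-Axitinib sample, and 3%-Axitinib replicate 2 was far above all others. The means were 45.4 ± 32.5 CPM and 262 ± 212 CPM (SD, n = 3 each), with a log2 fold change of 2.53 ± 0.81 (standard error; edgeR, adjusted p = 0.140). When 3%-Axitinib replicate 2 was left out, this value was 1.70 and Col2a1 no longer met the criterion.

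Col11a1 and Col11a2 encode chains of collagen XI, the collagen inside the fibril. Col11a1 (chromosome 3, 114030540 to 114220718, plus strand) had values of 59.4, 26.7 and 25.2 CPM in 0%-Axitinib replicates 1, 2 and 3 and 24.0, 96.6 and 30.3 CPM in 3%-Axitinib replicates 1, 2 and 3. The groups overlapped, with a single high sample in each and the lowest value among 3%-Axitinib samples. Col11a1 differed by a log2 fold change of 0.44 ± 0.60 (standard error; edgeR, adjusted p = 0.679), and it turned to -0.45 without 3%-Axitinib replicate 2. Col11a2 (chromosome 17, 34039437 to 34066685, plus strand) had values of 20.9, 18.7 and 85.7 CPM in 0%-Axitinib replicates 1, 2 and 3 and 25.1, 199 and 83.8 CPM in 3%-Axitinib replicates 1, 2 and 3. Here 0%-Axitinib replicate 3 reached the level of 3%-Axitinib replicate 3, so the groups overlapped. The log2 fold change of Col11a2 was 1.30 ± 0.85 (standard error; edgeR, adjusted p = 0.383). Without 0%-Axitinib replicate 3 it was 2.37 and met the criterion, and without 3%-Axitinib replicate 2 it was 0.41.

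The chains of collagen IX, the collagen on the fibril surface, are encoded by Col9a1, Col9a2 and Col9a3. Col9a3 (chromosome 2, 180597790 to 180622189, plus strand) had 2.30, 2.80 and 2.06 CPM in 0%-Axitinib replicates 1, 2 and 3 and 6.05, 13.9 and 11.7 CPM in 3%-Axitinib replicates 1, 2 and 3. The 0%-Axitinib samples lay close together, and the lowest 3%-Axitinib sample was 2.16 times the highest of them. Its log2 fold change of 2.14 had the smallest standard error among the 9 tested genes (0.40; edgeR, adjusted p = 0.0965) and ranged from 1.90 to 2.43 when single samples were left out. Col9a3 overlaps Tcfl5 on the other strand, and whether reads were counted by strand is not given in the sources used here.

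Col9a1 (chromosome 1, 24177610 to 24252684, plus strand) was far lower, with 0, 8 and 3 reads in 0%-Axitinib replicates 1, 2 and 3 and 6, 26 and 53 reads in 3%-Axitinib replicates 1, 2 and 3. In CPM these were 0, 0.467 and 0.163 in the first group, where 0 reads allowed up to 0.157 CPM, and 0.660, 2.37 and 3.07 in the second. Every 3%-Axitinib sample was above every 0%-Axitinib sample in CPM, but the lowest and the highest of these, with 6 and 8 reads, were near the limit of detection and differed by a factor of 1.41. Col9a1 passed the filter on low counts only through the 3%-Axitinib group, and would not have been tested at its 0%-Axitinib level in both groups. Its log2 fold change was 3.27 ± 1.04 (standard error, edgeR, adjusted p = 0.139). It ranged from 2.68 (without 0%-Axitinib replicate 1) to 4.54 (without 0%-Axitinib replicate 2) when single samples were left out. Without 3%-Axitinib replicate 3 it was 2.84 and no longer met the criterion. Col9a2 (chromosome 4, 121039385 to 121055322, plus strand) had 1.72, 0.641 and 0.272 CPM in 0%-Axitinib replicates 1, 2 and 3 and 1.32, 3.92 and 1.51 CPM in 3%-Axitinib replicates 1, 2 and 3. The groups overlapped, because 0%-Axitinib replicate 1 was above 3%-Axitinib replicates 1 and 3. The log2 fold change of Col9a2 was 1.34 ± 0.77 (standard error; edgeR, adjusted p = 0.324). It dropped to 0.67 when 3%-Axitinib replicate 2 was left out, and was 2.28 without 0%-Axitinib replicate 1, where it met the criterion.

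Acan (chromosome 7, 79053483 to 79115099, plus strand) encodes aggrecan. Its expression was 4.96, 11.8 and 2.12 CPM in 0%-Axitinib replicates 1, 2 and 3 and 31.1, 170 and 84.3 CPM in 3%-Axitinib replicates 1, 2 and 3. The groups were separated by a factor of 2.63, and the highest and lowest samples within each group differed by factors of 5.59 and 5.48. Acan had the largest log2 fold change of the 9 tested genes, 3.92 ± 0.83 (standard error; edgeR, adjusted p = 0.0965), or 15.1-fold. It ranged from 3.20 to 4.74 when single samples were left out and met the criterion each time.

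Hapln1 (chromosome 13, 89539796 to 89611652, plus strand), the link protein gene, had 0.731, 1.05 and 0.706 CPM in 0%-Axitinib replicates 1, 2 and 3 and 2.31, 18.9 and 4.23 CPM in 3%-Axitinib replicates 1, 2 and 3. The 0%-Axitinib samples, with 14, 18 and 13 reads, were alike, and the 3%-Axitinib samples were all higher but differed among themselves by a factor of 8.17. The log2 fold change was 3.34 ± 0.84 (standard error; edgeR, adjusted p = 0.101). Without 3%-Axitinib replicate 2 it was 1.98, still within the criterion. A processed pseudogene, Gm8546, lies within Hapln1 on the other strand.

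Comp (chromosome 8, 70373558 to 70382066, plus strand) encodes cartilage oligomeric matrix protein, a pentamer that binds collagen fibrils. It had values of 272, 127 and 54.1 CPM in 0%-Axitinib replicates 1, 2 and 3 and 164, 436 and 130 CPM in 3%-Axitinib replicates 1, 2 and 3. The groups overlapped, with 0%-Axitinib replicate 1 second only to 3%-Axitinib replicate 2. The log2 fold change was 0.69 ± 0.67 (standard error; edgeR, adjusted p = 0.555), and it turned to -0.05 without 3%-Axitinib replicate 2.

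Matn3 (chromosome 12, 8947929 to 8972028, plus strand), which encodes matrilin 3, a protein largely restricted to cartilage, had 1, 1 and 0 reads in 0%-Axitinib replicates 1, 2 and 3 and 0, 3 and 0 reads in 3%-Axitinib replicates 1, 2 and 3. No sample was above the limit of detection, so a difference between the groups was not detectable at this depth and no fold change is given. The 3 samples without a read allowed up to 0.163, 0.330 and 0.174 CPM (0%-Axitinib replicate 3, 3%-Axitinib replicates 1 and 3). The related gene Matn1 was at most 0.209 CPM in any sample.

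**Figure D2:**
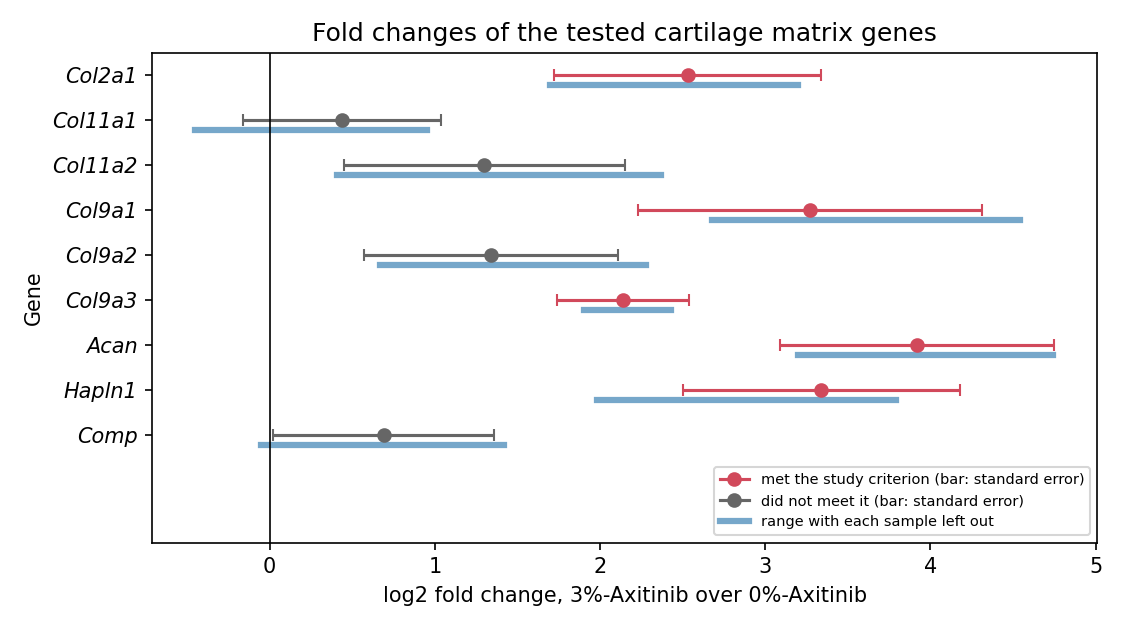
Log2 fold change of the 9 tested cartilage matrix genes in the 3%-Axitinib group over the 0%-Axitinib group, with the standard error as bars, in red for genes that met the study's criterion and in grey for the others; blue bars give the range when single samples were left out. The ranges of Col11a1 (-0.45 to 0.95) and Comp (-0.05 to 1.42) cross 0, and those of the other 7 genes do not.

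Together, the 10 genes took 0.0407%, 0.0237% and 0.0255% of the reads on genes in 0%-Axitinib replicates 1, 2 and 3 and 0.0326%, 0.135% and 0.0529% in 3%-Axitinib replicates 1, 2 and 3. The sums of the groups overlapped, because 0%-Axitinib replicate 1 exceeded 3%-Axitinib replicate 1. The make-up of the sum differed between these samples. In 0%-Axitinib replicate 1, Comp gave 72.2% of the reads on the 10 genes, Col11a1 15.7%, Col2a1 3.94% and Acan 1.31%. In 3%-Axitinib replicate 1, Comp gave 49.4%, Col2a1 23.3%, Acan 9.40% and Col11a1 7.24%. Acan gave 0.848% to 5.13% of the reads on the 10 genes in the 0%-Axitinib samples and 9.40% to 15% in the 3%-Axitinib samples, without overlap. Hapln1 gave 0.194% to 0.455% and 0.697% to 1.31%, and Col11a1 gave 10.1% to 15.7% and 5.38% to 7.24%, also without overlap. The shares of the other genes overlapped. All shares are parts of the same sum, and the level of Col11a1 itself overlapped between the groups.

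Levels of different genes were compared as CPM per kilobase of annotated exon. In the 0%-Axitinib group, Comp was highest with 50.9 ± 37.4 CPM per kb (SD, n = 3), followed by Col11a2 (6.07 ± 5.54), Col2a1 (4.92 ± 3.51) and Col11a1 (2.91 ± 1.51), whose sample ranges overlapped from each to the next. Then came Acan (0.844 ± 0.669), Col9a3 (0.619 ± 0.0975), Col9a2 (0.284 ± 0.244) and Hapln1 (0.140 ± 0.0325), again with overlapping ranges between neighbours, and last Col9a1 and Matn3. The ranges of neighbours were apart between Comp and Col11a2, between Col11a1 and Acan and between Hapln1 and Col9a1. In the 3%-Axitinib group, the order of the means was Comp (81.9 ± 56.4 CPM per kb), Col2a1 (28.3 ± 23), Col11a2 (14.9 ± 12.9), Acan (12.8 ± 9.41), Col11a1 (3.95 ± 3.15), Col9a3 (2.74 ± 1.06), Hapln1 (1.43 ± 1.53), Col9a2 (0.726 ± 0.468), Col9a1 (0.401 ± 0.244) and Matn3 (0.0302 ± 0.0524). Only Col9a1 and Matn3 were neighbours with ranges apart, but within each of these samples Comp exceeded Col2a1, Col2a1 exceeded Col11a2, Acan exceeded Col11a1 and Col9a3 exceeded Hapln1.

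Some ratios between genes were steadier across samples than the levels. The pairs given here were chosen after their values were seen, and the ratios are descriptions without a test. On the scale of CPM per kb, Col2a1 was 2.00, 2.34 and 2.05 times Acan in 3%-Axitinib replicates 1, 2 and 3, while the level of either gene differed more than 5-fold among these samples. In 0%-Axitinib replicates 1, 2 and 3 this ratio was 2.42, 2.86 and 30.3. The last sample thus had Col2a1 with little Acan, and it was also the sample with the highest ratio of Col11a2 to Col11a1 (6.30, against 0.652 and 1.30 in 0%-Axitinib replicates 1 and 2). This sample stood apart from the other 0%-Axitinib samples in single genes of bone and B cells too, picked after their values were seen, with 5.32, 1.22 and 111 CPM of Bglap and 1.67, 2.33 and 101 CPM of Cd79a in 0%-Axitinib replicates 1, 2 and 3. The bone gene Fam20c went the other way, with 374, 694 and 91.2 CPM. The ratio of Col2a1 to Col11a2 was 2.29, 1.84 and 1.90 in 3%-Axitinib replicates 1, 2 and 3 and 0.530, 1.67 and 0.690 in 0%-Axitinib replicates 1, 2 and 3, without overlap. Within collagen IX, Col9a3 exceeded Col9a2 in every sample, by factors from 1.07 to 6.24.

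Collagen I, the main collagen of fibrous tissue and bone, exceeded collagen II in every sample. Per kb, Col1a1 was 675, 109 and 56.3 times Col2a1 in 0%-Axitinib replicates 1, 2 and 3 and 124, 87.4 and 61.4 times in 3%-Axitinib replicates 1, 2 and 3, and the groups overlapped. The ratio of Col11a1 to Col1a1 was nearly constant within each group. It was 0.00429, 0.00425 and 0.00408 in 0%-Axitinib replicates 1, 2 and 3 and 0.00182, 0.00162 and 0.00167 in 3%-Axitinib replicates 1, 2 and 3. Col11a1 therefore followed Col1a1 from sample to sample within a group, at a lower ratio in the 3%-Axitinib samples, although its level overlapped between the groups.

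Averaged over the 9 tested genes, log2 CPM minus the 0%-Axitinib mean of each gene was -0.02, 0.20 and -0.19 in 0%-Axitinib replicates 1, 2 and 3 and 0.91, 3.00 and 1.86 in 3%-Axitinib replicates 1, 2 and 3. This mean, also used for the comparison with other genes below, includes Col9a1, which passed the filter on low counts only through the 3%-Axitinib group. Col9a1 was at 1.48, 3.14 and 3.50 on this scale in 3%-Axitinib replicates 1, 2 and 3. A mean without it was not computed. Among the 3%-Axitinib samples, replicate 2 was highest for 8 of the 9 tested genes and replicate 1 lowest for 8. Replicate 2 had fewer unmapped reads than replicate 1 and more than replicate 3. Over the 6 samples, the gene with the pattern closest to this mean, among 14334 other genes with a mean of at least 1 CPM, was Gm15422, with a root mean square difference of 0.267 on the log2 scale. It was followed by Susd5 (0.269), Itga10 (0.338), A830039N20Rik (0.344) and Kcnk1 (0.387). Of the cartilage matrix genes themselves, Col9a3 was closest to their mean (0.302), and Acan, which spanned the widest range, was farthest (1.155).

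Other cartilage genes were read from lists. For comparison with the counts of each list, 9.54% of all tested genes were called higher and 11.7% lower. Of 22 genes for chondrocyte regulators and minor cartilage proteins, 20 were tested, 6 met the criterion as higher and 0 as lower, beside 1 (3110079O15Rik) that passed the filter on low counts only through the 3%-Axitinib group. The 4 most abundant were Prg4, Prelp, Cilp and Pth1r. Prg4, which encodes the lubricant of joint surfaces, had values of 36.5, 23.3 and 3.15 CPM in 0%-Axitinib replicates 1, 2 and 3 and 1240, 978 and 268 CPM in 3%-Axitinib replicates 1, 2 and 3, with the highest value in replicate 1, where Col2a1 and Acan were lowest in that group. Of 20 genes for the synthesis of collagen and proteoglycan, 3 were higher and 3 lower, near the shares over all tested genes. The most abundant, the collagen chaperone gene Serpinh1, had a log2 fold change of 0.76 and did not meet the criterion. Of 10 genes for the breakdown of aggrecan and collagen II, 2 were higher (Mmp14 and Htra1) and 2 lower, again near those shares. The median log2 fold change was -0.05. The 2 lower genes were the aggrecanase gene Adamts4, at 24.5, 16.5 and 16.1 CPM in 0%-Axitinib replicates 1, 2 and 3 and 7.70, 6.92 and 4.52 CPM in 3%-Axitinib replicates 1, 2 and 3, and Adamts9.

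Markers of several other cell types differed between samples, and their part in the differences of the cartilage matrix genes was not tested. Of 10 genes of hypertrophic chondrocytes, 5 were higher and 0 lower (median log2 fold change 1.99). Of 10 genes of osteoblasts and osteocytes, 4 were higher and 0 lower (median 1.88). Ibsp, Alpl and Sp7 are in both lists. In the bone list, 7 genes had a log2 fold change above 0. Bglap, Bglap2 and Fam20c went the other way (-1.27, -0.91 and -0.19) without meeting the criterion. Bglap was at 0.55, 26.4 and 21.5 CPM in 3%-Axitinib replicates 1, 2 and 3. The summed expression of the hypertrophic list was 1490, 1650 and 2530 CPM in 0%-Axitinib replicates 1, 2 and 3 and 3140, 19100 and 4090 CPM in 3%-Axitinib replicates 1, 2 and 3, and that of the bone list 701, 948 and 809 CPM and 1640, 13700 and 3140 CPM. The most abundant gene of both, Ibsp, which encodes bone sialoprotein, reached 10500 CPM in 3%-Axitinib replicate 2, the sample with the highest expression of most cartilage matrix genes. The defining marker of hypertrophic chondrocytes, Col10a1, was at 14.8, 5.89 and 0.597 CPM in 0%-Axitinib replicates 1, 2 and 3. In 3%-Axitinib replicates 1, 2 and 3 it was at 24.2, 33.3 and 10 CPM, so the groups overlapped. Its log2 fold change of 1.66 ± 0.96 (standard error) did not meet the criterion.

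The sum of the fibroblast genes was also highest in that sample, though Dcn, Pdgfra, Dpt, Fbln1 and Mfap5 were highest elsewhere. The 10 fibroblast genes summed to 27500, 13700 and 10600 CPM in 0%-Axitinib replicates 1, 2 and 3 and 24200, 72900 and 26700 CPM in 3%-Axitinib replicates 1, 2 and 3, led by Col1a1, with 3 genes higher and 0 lower (median log2 fold change 1.01). Of 7 tested tendon and ligament genes, 3 were higher and 0 lower, with sums of 792, 363 and 460 CPM and of 1270, 2170 and 905 CPM, led by Fmod.

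Skeletal muscle genes had another pattern than the cartilage matrix genes. Their sum was 178, 9.74 and 17.9 CPM in 0%-Axitinib replicates 1, 2 and 3 and 17300, 26.6 and 9620 CPM in 3%-Axitinib replicates 1, 2 and 3, led by Acta1, and 17 of 19 tested genes were higher, of which 6 would not have been tested at their 0%-Axitinib level. In 3%-Axitinib replicate 2, where Ckm and Myh4 had 0 reads, Col2a1, Acan and Hapln1 were at their highest. Of 8 Schwann cell genes, 2 were higher and 0 lower (median 1.44), with sums of 1200, 286 and 185 CPM in 0%-Axitinib replicates 1, 2 and 3 and 1480, 1450 and 1300 CPM in 3%-Axitinib replicates 1, 2 and 3, led by Mbp.

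Of 10 endothelial genes, 9 were lower (median -1.46), with sums of 908, 626 and 940 CPM in 0%-Axitinib replicates 1, 2 and 3 and 253, 267 and 376 CPM in 3%-Axitinib replicates 1, 2 and 3, led by Pecam1. Of 10 adipocyte genes, 2 were lower, beside Lep, which would not have been tested at its 3%-Axitinib level (sums of 1950, 2960 and 1460 CPM and of 1070, 797 and 1280 CPM, led by Lpl), and of 10 leukocyte genes 1 was lower, beside Cd3e and Cd79a, for which the same holds (sums of 3690, 4950 and 4610 CPM and of 2610, 2890 and 4250 CPM, led by Cd68). These adipocyte and leukocyte counts were near the share over all tested genes (11.7% lower), which includes genes that passed the filter through 1 group only. The median log2 fold change was -1.27 for the adipocyte list, where 0 of 10 genes had a value above 0. It was -0.89 for the leukocyte list, where 1 of 10 did. Of 5 tested keratinocyte genes, 1 was lower, and the list summed to 949 CPM in 0%-Axitinib replicate 2 and to between 12.8 and 19.6 CPM elsewhere, led by Krt1.

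**Figure D3:**
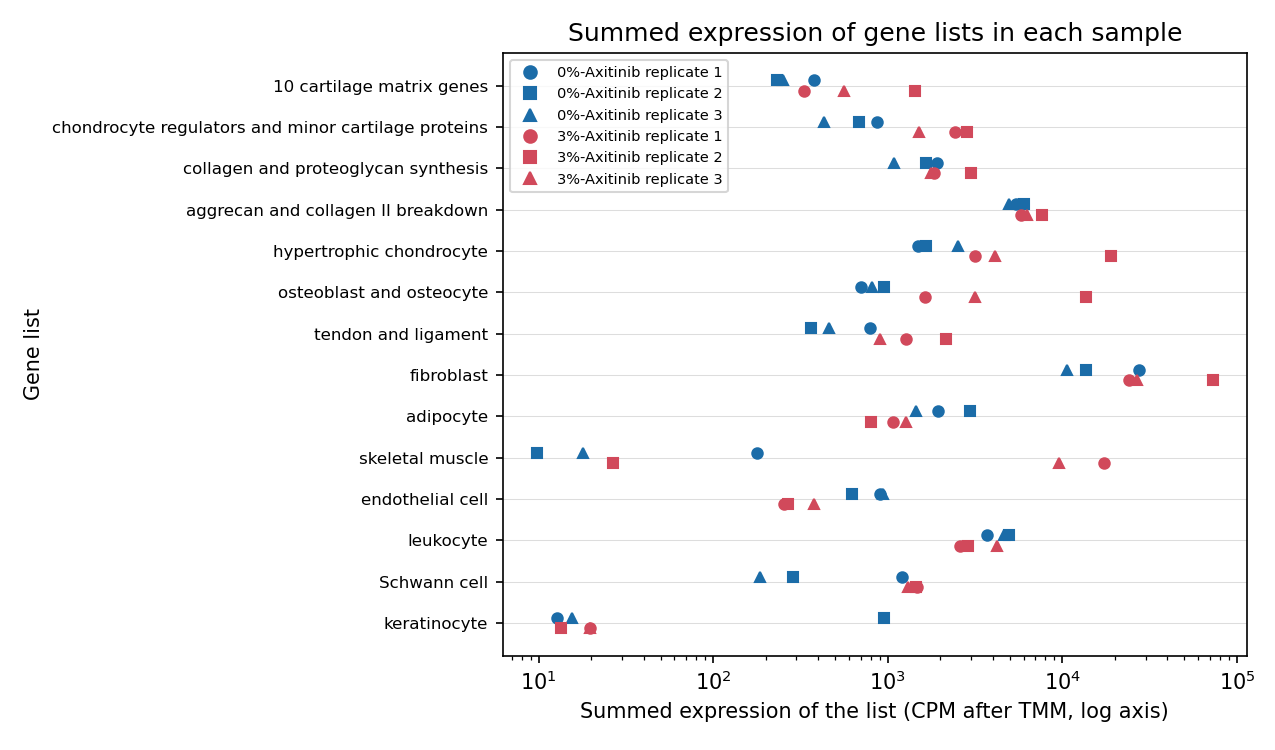
Summed expression of the 10 cartilage matrix genes and of each gene list in every sample, in CPM on a log axis, with 0%-Axitinib samples in blue and 3%-Axitinib samples in red. The sum of the cartilage matrix genes is highest in 3%-Axitinib replicate 2. So are those of the hypertrophic chondrocyte, osteoblast, fibroblast, tendon and ligament, chondrocyte regulator, matrix synthesis and matrix breakdown lists. The skeletal muscle sum is high only in 3%-Axitinib replicates 1 and 3.

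The 10 genes lie on 10 different chromosomes. RefSeq's promoter table (GRCm38.p6) held 8 promoters for 7 of them, and the 250 bases before the start were searched on both strands. The GC box GGGCGG was found in 5 of the 8 promoters and in 32.7% of all 32851 promoters, and the TATA box TATAAA in 1 (Col11a2) and in 12.4%. The SOX cores ACAAAG and ACAATG were found in 0 of the 8 promoters and in 16.5% and 10.7% of all. The windows of Acan and of the upstream start of Col9a1 are printed because they differ in base composition, with 74.4% and 43.6% G and C against a median of 52.4% over all promoters. Capitals mark GC boxes, read here on the other strand as CCGCCC, of which a pair in Acan overlaps; Col9a1 holds none of the 4 motifs. The Acan window is chr7:79052976-79053225 and that of Col9a1 is chr1:24177360-24177609, both on the plus strand. RefSeq's start of Acan lies 257 bases before the gene start given above, so this window does not adjoin that start. No transcript of the gene in GENCODE M21 begins at RefSeq's start.
Acan: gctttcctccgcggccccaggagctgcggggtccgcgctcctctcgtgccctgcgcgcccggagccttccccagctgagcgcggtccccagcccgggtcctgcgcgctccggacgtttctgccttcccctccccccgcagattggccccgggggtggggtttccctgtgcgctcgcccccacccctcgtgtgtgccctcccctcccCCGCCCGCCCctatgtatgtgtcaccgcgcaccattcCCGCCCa
Col9a1: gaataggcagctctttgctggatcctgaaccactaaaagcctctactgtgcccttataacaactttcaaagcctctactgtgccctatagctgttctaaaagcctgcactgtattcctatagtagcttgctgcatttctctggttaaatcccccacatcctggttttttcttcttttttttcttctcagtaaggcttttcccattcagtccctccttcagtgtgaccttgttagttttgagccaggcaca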

How the data were processed

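RNA-seq of 6 samples, 3 per group, was analysed. The authors enriched mRNA with oligo(dT), filtered reads with fastp, used STAR (version 2.5.2b in the submitters' processing notes) with mouse build mm10 (GRCm38) and deposited unnormalized read counts per gene symbol. The annotation release and the use of strand in counting are not given in the sources used here. The 4 lines of reads given to no gene were left out of the fit. Unmapped reads took 3.84% to 48.4% of a sample, multimapping reads 2.71% to 6.65%, reads outside genes 3.17% to 6.14% and ambiguous reads 3.55% to 5.74%. In R 4.3.3 with edgeR 4.0.16, genes were filtered with filterByExpr (minimum count 10, minimum total 15), normalized with TMM and tested by quasi-likelihood, and p was adjusted after Benjamini and Hochberg over 15257 genes. CPM use the TMM library sizes, and log2 CPM have a prior count of 2. The standard errors given with edgeR's log2 fold changes are not an output of edgeR. Each is the absolute log2 fold change divided by the square root of the F statistic of the quasi-likelihood test. DESeq2 1.42.0 and limma 3.58.1 gave alternatives, as did other filters and scalings, the replicate number as a block and each sample left out in turn. Exon lengths and positions come from GENCODE M21, promoters from RefSeq. Replicates of a group differed far beyond counting error (chi-square per degree of freedom 42.9 or more). Tests treat samples as independent. Counting limits cover counting error only.

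The members and the 13 gene lists were chosen with earlier results of these data known. Named are the 10 members, the genes most like their mean pattern, and of each list at most 4 of the most abundant tested genes; other genes named (such as Adamts4, Adipoq, Bglap, Cd79a, Krt5, Ckm, Col10a1, Matn1 and the ratios' pairs) were chosen after their values were seen. The fit was checked on simulated counts, in which the spread of each gene between replicates was capped. That check therefore does not show how the fit performs at the spread of these samples.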

Additional observations from a re-analysis of the deposited data

How the results depend on the processing

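Col9a1, which passed the filter on low counts only through the 3%-Axitinib group, is left out of the counts in the next sentence. The other members called higher numbered 4 with other scalings, other tests, other filters or a fold change of at least 2, and from 3 to 5 with single samples left out. Acan, Col9a3 and Hapln1 met the criterion each time. Of the log2 fold changes of the members, 109 kept their direction and their side of the criterion, 2 lost the criterion (Col2a1 without 3%-Axitinib replicate 2, Col9a1 without 3%-Axitinib replicate 3), 2 gained it (Col11a2 without 0%-Axitinib replicate 3, Col9a2 without 0%-Axitinib replicate 1) and 2 reversed, both without 3%-Axitinib replicate 2 (Col11a1 -0.45, Comp -0.05); with single samples left out these ranged up to 0.95 and 1.42, both without 0%-Axitinib replicate 1. The highest and lowest adjusted p over all alternatives were 0.280 and 1.13e-05 for Acan, 0.280 and 7.52e-05 for Col9a3, 0.280 and 0.00111 for Hapln1, 0.295 and 0.00957 for Col2a1 and 0.330 and 0.0322 for Col9a1, the lowest always from DESeq2. In edgeR, 1 member (Col9a3, adjusted p = 0.0463) passed the adjustment without 0%-Axitinib replicate 3, where 7.98% of all tested genes passed.

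Over all genes, 1 had an adjusted p of 0.05 or less in edgeR, and this number was 1957 with DESeq2's Wald test, 2 with limma-voom and 15 without a filter. With each sample left out, it ranged from 0 to 1252 (without 0%-Axitinib replicate 3). Genes called higher, 1456, then ranged from 1055 to 2274, and genes called lower, 1785, from 1308 to 2148. With total counts in place of TMM, the median log2 fold change of all genes was -0.163 in place of -0.034, and 28.8% of the called genes were higher in place of 44.9%. The difference in unmapped reads ranged from 15 to 30.7 percentage points with each sample left out, and was 51.6 per 100 reads on genes.

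With the replicate number as a block (replicate block), 2 genes had an adjusted p of at most 0.05, 1249 genes were called higher and 1354 lower, and 5 members were called higher (4 without Col9a1). Deviations of samples with the same number correlated with r = 0.182, -0.115 and -0.174 over genes, and not every sample correlated best with its own number. With 3 samples per group, these values cannot show whether samples with the same number shared a batch. Matn3 was given no fold change, since no sample was above the limit of detection, and genes as low as Col9a1 rest on few reads at this depth.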
